A study of Rattus norvegicus with 8 samples.

Results

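Macrophage and myeloid cell genes were examined in the kidneys of rats fed a control or a high phosphorus (HP) diet. The set holds 47 genes chosen by name, and a probe set was taken as a member when the platform annotation gave it exactly 1 of these gene symbols. This gave 55 probe sets for 41 genes, out of 31099 probe sets and 14217 genes with an assigned symbol on the array. Spi1, Slc11a1, Msr1, Marco, Vsig4 and Siglec1 had no such probe set and were not measured. All rats were male Wistar rats of 8 weeks of age at the end, kept singly and fed the control diet during acclimatization. The control group then received an AIN-93G diet with 0.3% phosphorus and the HP group the same base diet with 1.2% phosphorus, both for 24 days. The extra phosphorus was given as KH2PO4 in place of corn starch, so that the HP diet also held more potassium. RNA of the left kidney of 4 rats per diet was hybridized to Affymetrix rat genome arrays, 1 rat per array. The authors had picked these rats as average ones of their group, and the error of every value below refers to such picked animals.

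Macrophages are phagocytes that either settle in an organ before birth and renew themselves there or arise from circulating monocytes. Their survival depends on the receptor for macrophage colony-stimulating factor, and they take up debris through scavenger and pattern recognition receptors and kill microbes with superoxide from the NADPH oxidase of phagocytes. In the kidney they lie in the interstitium between the tubules and are known to accumulate after tubular injury. Many genes of the set, such as those for the leukocyte cytoskeleton, are also used by lymphocytes and neutrophils.

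Probe sets were summarized by the distribution free weighted method (DFW) into values on a logarithmic scale, taken here to be log2. This method draws the values of a probe set together according to their spread, so that a difference between diets is not a log2 fold change and levels of different probe sets cannot be compared. Differences between diets (HP minus control) are therefore given with their standard error (SE) and as a standardized difference, in units of the SD pooled over both diets. All genes were tested with limma over 31042 probe sets, and a gene was called at an adjusted p (Benjamini-Hochberg) under 0.05. The arrays measure whole kidney tissue, in which more cells of a type and more RNA per cell cannot be told apart. Precision is limited by the 4 arrays of each diet, and arrays give every probe set a value, so that the absence of a transcript cannot be read from them. The medians of the 8 arrays lay between 7.056091 and 7.056157.

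Myeloid genes were mostly higher in the HP group. Of the 55 member probe sets, 26 were called higher and none lower by limma, while 2.95% of all probe sets tested were called higher, 1.13% lower and 4.08% in either direction. At an unadjusted p under 0.05, 38 member probe sets were higher and 2 lower, beside 9.53% and 9.45% of all probe sets. The median standardized difference of the members was 3.09, and that of all probe sets was -0.21. With each gene represented by its probe set of highest mean, 22 of 41 genes rose and none fell, beside 4.58% and 1.23% of all genes. The rank products method used in the study called 34 member probe sets higher at an FDR under 0.05 and none lower, beside 3.4% and 2.32% of all probe sets. These 34 included the 26 called by limma. The HP arrays were all above the control arrays in 34 member probe sets, beside 7.09% of all probe sets, and in 1, a probe set of Aif1, they were all below, beside 5.81%. The differences of the called members ranged from 3.82e-05 to 0.00595.

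**Figure D1:**
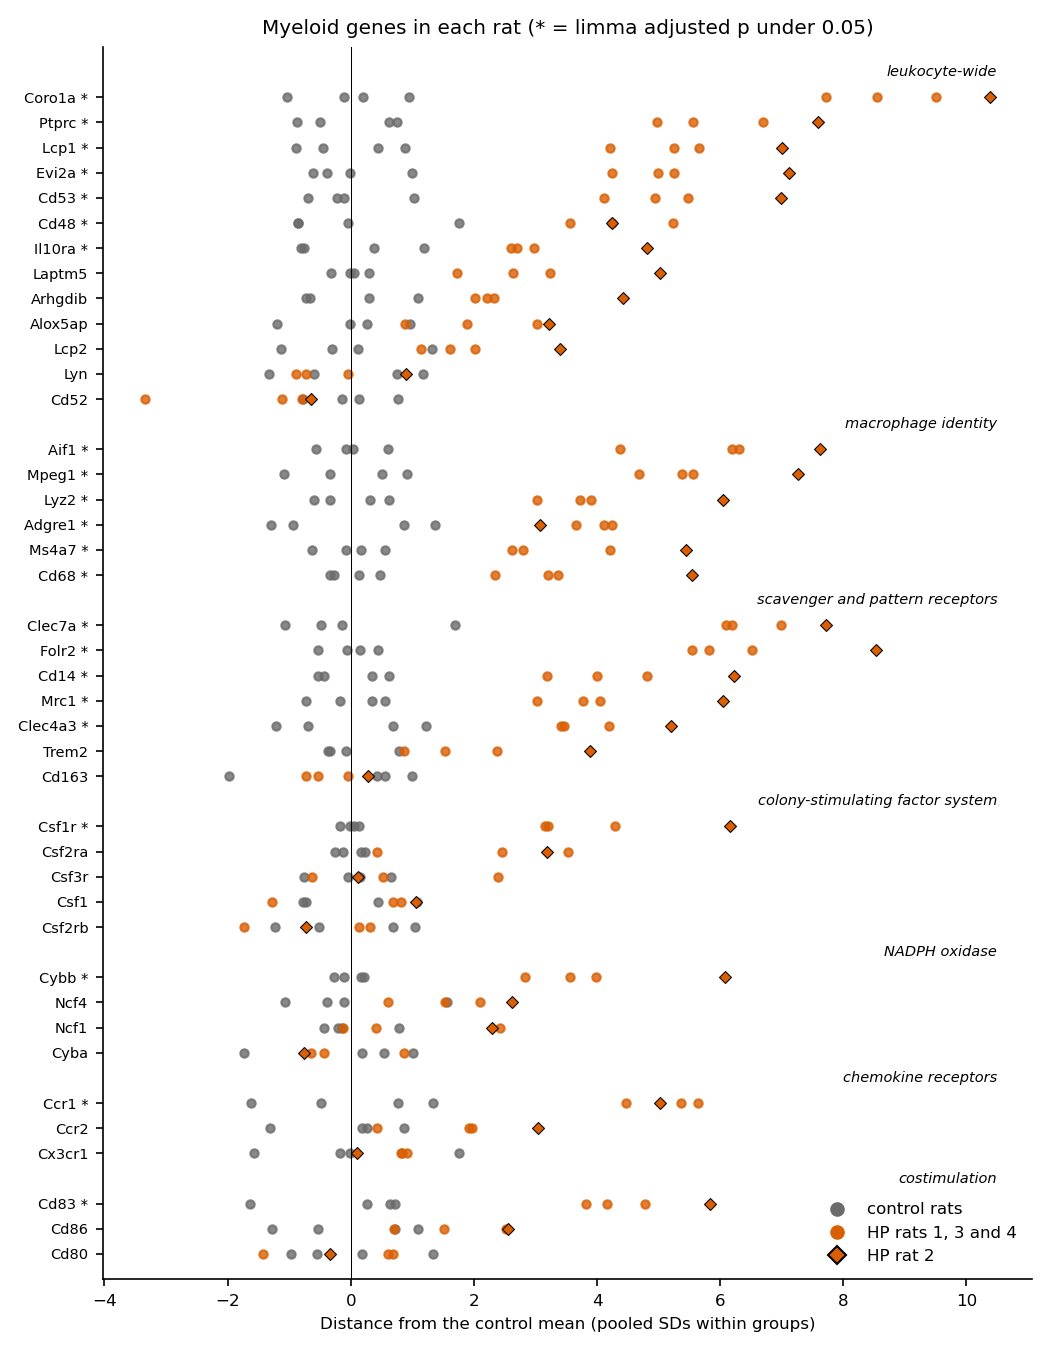
Value of each rat for the 41 measured genes, as the distance from the control mean in pooled SDs within groups (horizontal axis, no other unit), with genes grouped by role. Grey points are control rats, orange circles HP rats 1, 3 and 4, and diamonds HP rat 2, and a star marks the 22 genes called higher. Every starred gene has its 4 orange points to the right of all grey points.

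These counts changed with the scaling between arrays and fell when any 1 rat was left out. A fit without 1 rat also has fewer arrays to test with. Leaving out 1 rat lowered the number of member probe sets called higher to between 12 (without control replicate 2 or without HP replicate 1) and 23 (without HP replicate 4). It was 13, 14 and 16 without control replicates 3, 1 and 4, and 18 and 22 without HP replicates 3 and 2. Over the whole array the share called higher went from 2.95% to between 1.09% and 2.16% in the same fits. A call in all 8 of these fits was kept by 11 member probe sets, namely both of Ptprc and 1 each of Cd53, Laptm5, Lcp1, Coro1a, Evi2a, Aif1, Mpeg1, Folr2 and Clec7a. After centring of each array on its median, 6 member probe sets were called higher, those of Cd53, Mpeg1, Lyz2, Mrc1, Cd14 and the brighter probe set of Cybb, beside 0.251% of all probe sets. In 19 of the 26 called probe sets the difference itself stayed within 1.5 times of that reported. The other 7 were those of Lcp2, Cd48, Il10ra, Ms4a7, Ccr1, Cd83 and the dimmer one of Ptprc. Coro1a had a difference of 0.000548 against 0.000609, but an adjusted p of 0.98 against 0.0041. The 6 probe sets that kept a call were those with the largest differences. Among the 19, a call lost after this centring thus does not mean that the difference was lost. The cause of the change in adjusted p was not tested. When the 57 Affymetrix controls were included in the median, 23 were called, beside 1.42% of all probe sets. After quantile normalization 18 member probe sets were called higher and 6 lower, beside 316 (1.02%) and 7714 (24.9%) of all probe sets.

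**Figure D2:**
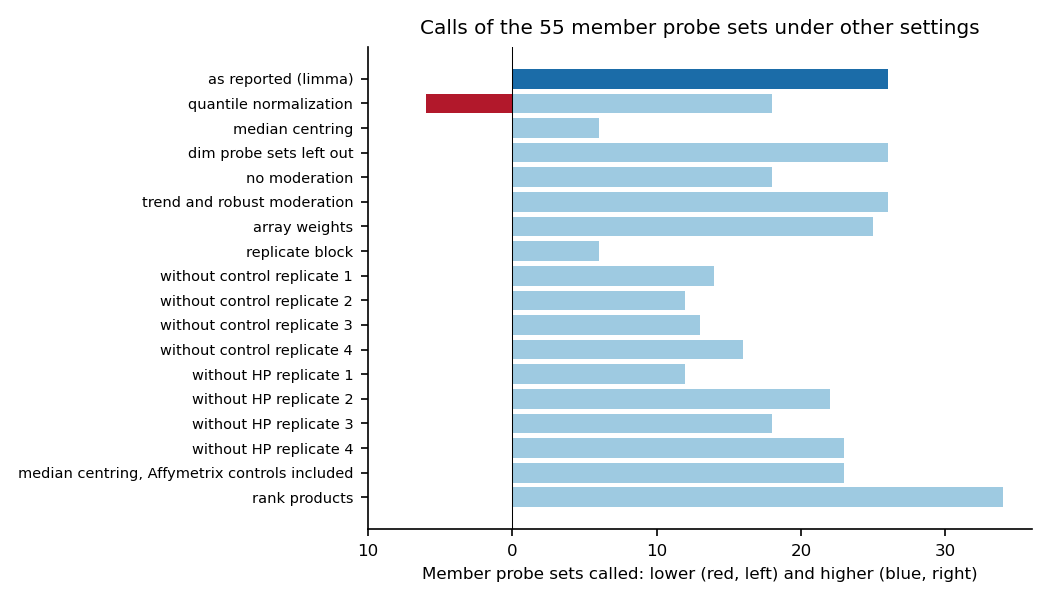
Number of the 55 member probe sets called higher (blue bars, to the right) and lower (red bars, to the left) by the test reported here and under each alternative. The count is 26 as reported, 6 after median centring and 34 by rank products, and quantile normalization is the setting with calls in the lower direction.

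HP rat 2 had the highest values for most of these genes. It was the highest HP rat in 22 of the 26 called member probe sets (84.6%), and in 61.3% of the 915 probe sets called higher over the whole array. HP rat 4 was the lowest HP rat in 15 of the 26 (57.7%, beside 41.3% over the array) and was the highest in none. Among the control rats, rat 1 was the highest in 13 of the 26 (50%, beside 27.5%) and rat 3 the lowest in 13 (50%, beside 31.3%). The median distance from the control mean over the 26 probe sets was 4.80, 6.12, 4.35 and 4.18 pooled SDs for HP rats 1 to 4. It was 0.51, -0.23, -0.34 and 0.10 for control rats 1 to 4. These medians describe probe sets chosen for being called. The spread was wider among HP rats than among control rats in 19 of the 26 probe sets, with a median ratio of the SDs of 1.56, and in 66% of all probe sets called higher. Without HP replicate 2 the number of member probe sets called was 22, of which 21 were among the 26.

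**Figure D3:**
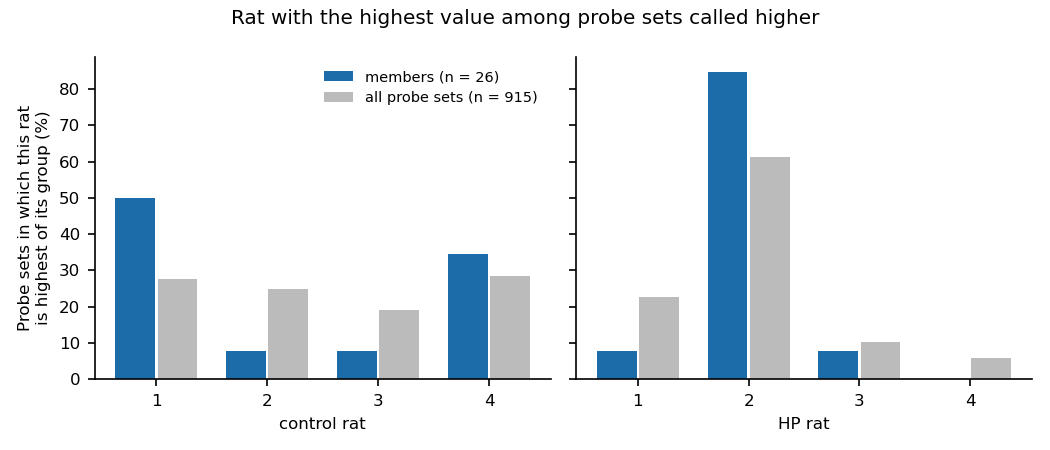
Share of probe sets called higher (vertical axis, percent) in which a rat had the highest value of its diet group, for control rats (left) and HP rats (right). Blue bars are the 26 member probe sets and grey bars all 915 probe sets. HP rat 2 is the highest in 84.6% of the members and in 61.3% of all.

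The myeloid genes with promoter sequence were searched for motifs of factors known from macrophages, since many of them moved together. RefSeq promoter sequences of the rat build GRCr8 (250 bases before to 50 after the gene start) were matched by symbol to 33 members, with 34 entries. The motifs searched on both strands were GAGGAAGT of PU.1, TTGCNNAA of C/EBP, TGANTCA of AP-1 and, for the interferon regulatory factors (IRF), GAAA followed by NN and a further GAAA. The IRF motif occurred in 6 of 34 member entries (17.6%) and in 3.92% of all 33469 promoters. The PU.1 motif occurred in 2 (5.88%, beside 2.42%), the C/EBP motif in 4 (11.8%, beside 10.6%) and the AP-1 motif in 3 (8.82%, beside 7.33%). No match in a member overlapped a match of another motif. A match describes these letters only and is not a binding site. The 5 called genes with an IRF or a PU.1 match are shown with the 250 bases before their start, 5′ to 3′ on the strand of the gene. The capitals mark the IRF motif in the first 4 and the PU.1 motif in Cd53.
Cybb, chrX:16065066-16065315, minus strand: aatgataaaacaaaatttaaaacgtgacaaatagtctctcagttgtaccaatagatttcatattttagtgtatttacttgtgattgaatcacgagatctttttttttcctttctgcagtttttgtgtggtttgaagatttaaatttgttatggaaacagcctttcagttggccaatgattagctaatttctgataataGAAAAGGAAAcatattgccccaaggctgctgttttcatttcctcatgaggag
Cd48, chr13:86717744-86717993, plus strand: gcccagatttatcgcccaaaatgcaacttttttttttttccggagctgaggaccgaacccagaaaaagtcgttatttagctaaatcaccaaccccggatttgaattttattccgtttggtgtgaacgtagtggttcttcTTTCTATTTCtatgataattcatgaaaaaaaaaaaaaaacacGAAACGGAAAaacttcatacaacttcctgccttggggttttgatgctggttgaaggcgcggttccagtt
Adgre1, chr9:2329190-2329439, plus strand: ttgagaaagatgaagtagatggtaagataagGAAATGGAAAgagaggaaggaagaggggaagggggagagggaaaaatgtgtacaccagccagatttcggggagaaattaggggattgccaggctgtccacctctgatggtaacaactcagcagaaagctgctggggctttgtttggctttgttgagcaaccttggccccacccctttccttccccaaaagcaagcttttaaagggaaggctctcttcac
Ms4a7, chr1:217409644-217409893, minus strand: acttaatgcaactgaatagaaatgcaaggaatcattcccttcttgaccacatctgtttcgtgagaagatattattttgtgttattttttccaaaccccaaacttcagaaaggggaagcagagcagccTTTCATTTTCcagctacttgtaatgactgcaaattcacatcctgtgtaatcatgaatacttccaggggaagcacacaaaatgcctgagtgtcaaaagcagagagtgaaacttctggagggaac
Cd53, chr2:197087897-197088146, minus strand: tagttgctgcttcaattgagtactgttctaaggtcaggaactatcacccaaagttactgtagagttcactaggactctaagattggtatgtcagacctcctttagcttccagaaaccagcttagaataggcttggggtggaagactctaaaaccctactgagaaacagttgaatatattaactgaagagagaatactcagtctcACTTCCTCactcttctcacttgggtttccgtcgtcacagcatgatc
Counted from the gene start, the match begins at -52 in Cybb and at -46 in Cd53. In Cd48 the matches begin at -111 and -69, in Ms4a7 at -123 and in Adgre1 at -219. The other IRF matches were in Cd80 and Ncf1 and the other PU.1 match in Csf2ra, none of which was called.

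Genes used by leukocytes in general were the largest group. Of 13 such genes, all measured, 7 rose, none fell and 6 did not pass, with a median standardized difference of 3.27. Coro1a encodes coronin 1A, an actin-binding protein of leukocytes. It was at 7.867299, 7.867165, 7.867248 and 7.867228 in control rats 1 to 4 and at 7.867876, 7.867935, 7.867812 and 7.867756 in HP rats 1 to 4. The groups did not overlap, and HP rat 2 was again the highest. Coro1a rose by 0.000609 (SE 4.77e-05), or 9.04 pooled SDs (adjusted p = 0.0041), the largest standardized difference among the members.

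Ptprc encodes CD45, the tyrosine phosphatase on the surface of all leukocytes, and both of its probe sets were called. The brighter was at 7.903284, 7.903075, 7.903005 and 7.903309 in the control rats and at 7.904422, 7.904591, 7.904103 and 7.904210 in the HP rats. It rose by 0.00116 (SE 0.000133, standardized difference 6.20, adjusted p = 0.0084). The dimmer probe set rose by 0.000127 (SE 1.62e-05, standardized difference 5.54, adjusted p = 0.012), but turned negative after quantile normalization and was then called lower. Cd53, a tetraspanin of leukocytes, was at 7.352357, 7.351193, 7.351510 and 7.351586 in the control rats and at 7.355386, 7.356417, 7.355025 and 7.354456 in the HP rats. The lowest HP rat thus exceeded the highest control rat, and the difference of 0.00366 (SE 0.000481) had an adjusted p of 0.012. Lcp1, which encodes the actin-bundling protein L-plastin, was at 8.492874 to 8.493482 in the control rats and at 8.494626 to 8.495587 in the HP rats. It rose by 0.0019 (SE 0.000243, standardized difference 5.53, adjusted p = 0.012). Evi2a, a membrane protein gene within an intron of Nf1, rose by 0.000339 (SE 4.44e-05, standardized difference 5.40, adjusted p = 0.012), a call that was lost after quantile normalization (0.27).

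The remaining leukocyte genes gave smaller or divided results. Cd48, a surface ligand of the CD2 family, rose by 0.000179 (SE 2.93e-05, standardized difference 4.33, adjusted p = 0.024). Its call was lost in 6 of 8 fits without 1 rat (highest adjusted p 0.071, without control replicate 3) and after quantile normalization (0.073). Il10ra, a chain of the interleukin-10 receptor, was called in its brighter probe set (standardized difference 3.27, adjusted p = 0.048). Every removal of a rat ended this call, with adjusted p values of 0.063 to 0.12, and the other probe set had a standardized difference of 0.59 (adjusted p = 0.72). Laptm5, a lysosomal membrane protein of blood cells, rose by 0.00124 (SE 0.000151) or 5.81 pooled SDs in the dimmer of its probe sets (adjusted p = 0.0099). In its brighter probe set the standardized difference was 3.15 (adjusted p = 0.054), without overlap of the diets, but the difference turned negative after quantile normalization (adjusted p = 0.6). Lcp2, the adaptor SLP-76 of immune receptor signalling, rose in the dimmer probe set (standardized difference 3.43, adjusted p = 0.042, 0.11 without control replicate 3), and 7 of 8 removals ended the call. Its difference of 6.23e-05 became 1.24e-06 after median centring (adjusted p = 1.0). The brighter Lcp2 probe set had overlapping groups and a standardized difference of 2.04 (adjusted p = 0.16).

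Arhgdib, a gene of blood cells, and Alox5ap, which activates leukotriene synthesis, had standardized differences of 2.75 and 2.26 (adjusted p = 0.079 and 0.13). Rank products called Alox5ap (FDR 0.035) and not Arhgdib (0.051). The probe sets of Lyn, a Src family kinase, had standardized differences of 2.89 (adjusted p = 0.074) and -0.19 (0.93). Cd52, a short glycoprotein of lymphocytes and monocytes, had the most negative value of this group, at -1.47 (adjusted p = 0.3).

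Every measured gene of macrophage identity rose. All 6 measured genes, of 8 listed, passed, with standardized differences of 3.61 to 6.13. Aif1 encodes the calcium-binding protein IBA1, which is widely used to stain macrophages. Its brighter probe set was at 8.471721, 8.471649, 8.471573 and 8.471634 in the control rats and at 8.472429, 8.472610, 8.472444 and 8.472200 in the HP rats. The rise of 0.000776 (SE 8.96e-05) was 6.13 pooled SDs (adjusted p = 0.0086, and 0.065 after quantile normalization). The dimmer Aif1 probe set went the other way, with a difference of -4.43e-06 and a standardized difference of -2.26 (adjusted p = 0.14), and was called lower after quantile normalization. The brighter one has the suffix of probe sets that can also detect other transcripts of similar sequence.

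Mpeg1 encodes perforin-2, a pore-forming protein of phagocytes. Its brighter probe set was at 8.930500, 8.930220, 8.929669 and 8.929169 in the control rats and at 8.933562, 8.934683, 8.933439 and 8.932983 in the HP rats. It rose by 0.00378 (SE 0.000467) or 5.72 pooled SDs (adjusted p = 0.01) and kept its call after both median centring and quantile normalization. The dimmer one overlapped between diets, with a standardized difference of 1.08 (adjusted p = 0.45). Lyz2, the lysozyme of myeloid cells, was at 12.046435, 12.046197, 12.045720 and 12.045527 in the control rats and at 12.048877, 12.050467, 12.048747 and 12.048226 in the HP rats. HP rat 2 stood above the other HP rats, and the rise was 0.00311 (SE 0.000527, standardized difference 4.17, adjusted p = 0.025). Probes of Lyz2 may also bind the transcript of a closely related lysozyme gene.

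Cd68, a lysosomal glycoprotein of macrophages, rose by 0.00149 (SE 0.000292, standardized difference 3.61, adjusted p = 0.037). Adgre1, which encodes an adhesion receptor long used to mark tissue macrophages, was at 7.085506 to 7.085999 in the control rats and at 7.086316 to 7.086530 in the HP rats. The rise was 0.000699 (SE 0.000131) or 3.77 pooled SDs (adjusted p = 0.033), and here HP rat 2 was the lowest of its group. Ms4a7, a membrane protein of macrophages, rose by 7.26e-05 (SE 1.36e-05, standardized difference 3.76, adjusted p = 0.033) but turned negative after quantile normalization. The calls of Lyz2, Cd68 and Ms4a7 were lost in 6 of 8 fits without 1 rat and that of Adgre1 in 7. The highest adjusted p was 0.078 for Lyz2, 0.1 for Cd68 and 0.094 for Ms4a7, each without control replicate 3, and 0.091 for Adgre1 without HP replicate 1.

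**Figure D4:**
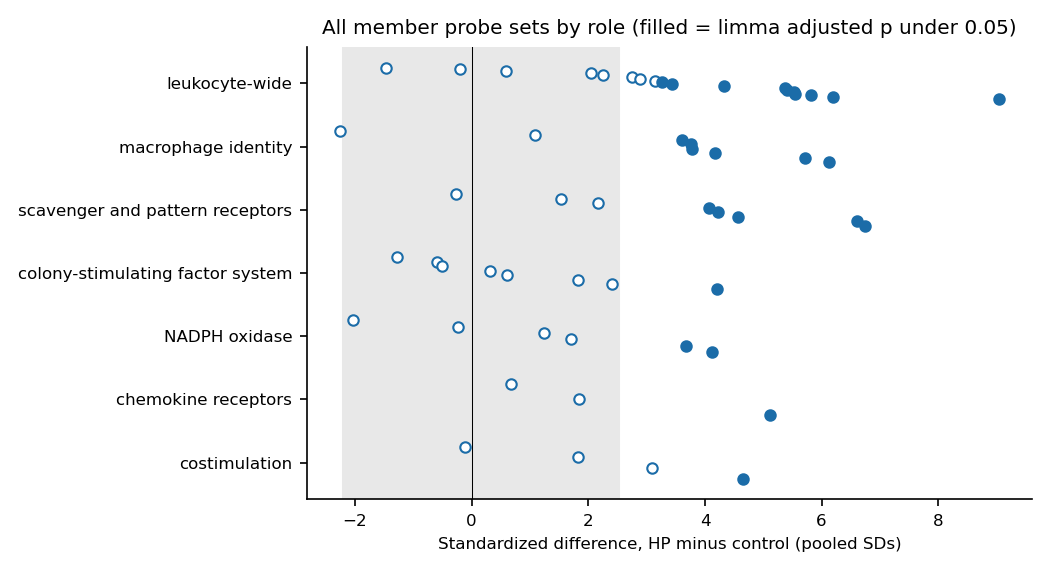
Standardized difference between diets (HP minus control, in pooled SDs, horizontal axis) of all 55 member probe sets in 7 roles. Filled points were called at an adjusted p under 0.05, open points were not, and the grey band spans the 5th to the 95th percentile of all probe sets, -2.20 to 2.53. All filled points lie to the right of the band.

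Scavenger and pattern recognition receptors rose in 5 of the 7 genes that were measured out of 11. Clec7a encodes dectin-1, the receptor for fungal beta-glucan. It was at 7.771554, 7.771404, 7.771364 and 7.771426 in the control rats and at 7.771917, 7.771967, 7.771856 and 7.771863 in the HP rats, without overlap. It rose by 0.000464 (SE 4.86e-05, standardized difference 6.75, adjusted p = 0.0068). Folr2, the folate receptor beta of resident macrophages, was at 6.896838 to 6.896907 in the control rats and at 6.897272 to 6.897485 in the HP rats. Its rise was 0.000471 (SE 5.04e-05, standardized difference 6.61, adjusted p = 0.0069).

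Cd14, the co-receptor for bacterial lipopolysaccharide, was at 7.446792, 7.446847, 7.447260 and 7.447404 in the control rats and at 7.449634, 7.450386, 7.449201 and 7.448773 in the HP rats. It rose by 0.00242 (SE 0.000376, standardized difference 4.56, adjusted p = 0.021). Mrc1, the mannose receptor CD206, was at 6.727875, 6.728166, 6.728454 and 6.728566 in the control rats and at 6.730315, 6.731551, 6.730464 and 6.729904 in the HP rats. The groups were separate, and the rise was 0.00229 (SE 0.000384, standardized difference 4.22, adjusted p = 0.025). Clec4a3, a C-type lectin of myeloid cells, rose by 0.00203 (SE 0.000353, standardized difference 4.07, adjusted p = 0.027). Removal of 1 rat ended the calls of Mrc1 and Clec4a3 in 6 of 8 cases and that of Cd14 in 4. The highest adjusted p was 0.071 for Mrc1 (without control replicate 3), 0.073 for Clec4a3 (without control replicate 2) and 0.062 for Cd14 (without HP replicate 1).

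The other receptors did not pass. Trem2, a lipid receptor of macrophages, had standardized differences of 2.16 and 1.54 in its probe sets (adjusted p = 0.14 and 0.28), although the diets did not overlap in either (two-sided exact permutation test, p = 0.029 each, the smallest that 4 arrays against 4 allow). Rank products called both, with an FDR of 0.022 and 0.015. Cd163, the scavenger receptor for haemoglobin bound to haptoglobin, had overlapping groups and a standardized difference of -0.26 (adjusted p = 0.9). Thus Mrc1 and Folr2, which also mark resident macrophages, were called and Cd163 was not. The difference between these genes was not tested.

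Of the colony-stimulating factor system, which controls the formation and survival of myeloid cells, 1 of 5 genes rose. Csf1r, the receptor that macrophages require, was at 8.036429, 8.036451, 8.036403 and 8.036440 in the control rats and at 8.037110, 8.037405, 8.036937 and 8.036929 in the HP rats. The control rats lay close together (SD 2.06e-05) and the HP rats were more spread (SD 0.000223). Csf1r rose by 0.000665 (SE 0.000112) or 4.20 pooled SDs (adjusted p = 0.025), and 5 of 8 removals of a rat ended the call, the adjusted p reaching 0.077 without control replicate 3. None of the 4 probe sets of its ligand Csf1 passed, with standardized differences of -1.28 to 1.83 (adjusted p = 0.2 to 0.87), and at an unadjusted p under 0.05 only that at 1.83 was higher.

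Csf2ra, the specific chain of the receptor for granulocyte-macrophage colony-stimulating factor, had a standardized difference of 2.40 (adjusted p = 0.11) with separate groups, and an FDR of 0.04 by rank products. It turned negative after quantile normalization and after median centring. Csf2rb, the shared chain of that receptor, and Csf3r, the receptor that drives neutrophil formation, had standardized differences of -0.50 and 0.60 (adjusted p = 0.76 and 0.71).

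Of the 4 member genes of the phagocyte NADPH oxidase, limma called 1, the catalytic subunit. Cybb encodes this subunit, gp91phox, and rose in both probe sets. The brighter was at 8.754490, 8.753777, 8.754005 and 8.754393 in the control rats and at 8.759934, 8.762966, 8.759322 and 8.758261 in the HP rats, where rat 2 stood clearly above the others. Its rise of 0.00595 (SE 0.00102, standardized difference 4.12, adjusted p = 0.026) was the largest difference among the members. The dimmer rose by 0.000695 (SE 0.000134, standardized difference 3.67, adjusted p = 0.035), a call that was lost after quantile normalization (0.067). Removal of 1 rat ended the call of the brighter probe set in 5 cases and of the dimmer in 6, with up to 0.08 and 0.1 without control replicate 3.

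Cyba encodes p22phox, the partner that holds gp91phox in the membrane and is also made by other cells of the kidney. Its probe sets had standardized differences of -0.24 and -2.03 (adjusted p = 0.9 and 0.25). The cytosolic subunits Ncf1 (p47phox) and Ncf4 (p40phox) had standardized differences of 1.25 and 1.71 (adjusted p = 0.41 and 0.23), and Ncf4 had an FDR of 0.045 by rank products. Of 5 measured oxidase genes outside the set, out of 7 listed, 1 rose. This was Rac2, the GTPase of the oxidase in blood cells (standardized difference 3.61, adjusted p = 0.037). Nox4, the oxidase of tubular cells, had a value of -1.77 (adjusted p = 0.22), with an FDR of 0.00088 in the lower direction by rank products, and Rac1 one of 1.64 (adjusted p = 0.27).

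Of the chemokine receptors, which guide monocytes into tissue, Ccr1 rose. It was at 6.329812, 6.329799, 6.329790 and 6.329808 in the control rats and at 6.329844, 6.329840, 6.329836 and 6.329842 in the HP rats. The difference was only 3.82e-05 (SE 5.28e-06) but 5.12 times the pooled SD (adjusted p = 0.015, and 0.051 without HP replicate 1). It turned negative after median centring (adjusted p = 0.98). Ccr2, the receptor of inflammatory monocytes, and Cx3cr1, that of patrolling monocytes and resident macrophages, had standardized differences of 1.84 and 0.67 (adjusted p = 0.2 and 0.67). Of 6 measured ligands of these receptors, out of 7 listed, 3 rose and none fell. Ccl2, the main ligand of Ccr2, had a standardized difference of 8.66 (adjusted p = 0.0043) and Ccl7, which binds Ccr1 and Ccr2, one of 3.97 (adjusted p = 0.029). Cx3cl1, the ligand of Cx3cr1, also passed (4.19, adjusted p = 0.042) but was not called by rank products. Its difference was only 2.4e-06, below the 6.51e-05 by which the array medians differed.

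Of the costimulatory genes, by which antigen-presenting cells activate T cells, Cd83 rose. It was at 7.295956, 7.295944, 7.295895 and 7.295953 in the control rats and at 7.296061, 7.296088, 7.296036 and 7.296045 in the HP rats. It rose by 0.00012 (SE 1.83e-05, standardized difference 4.65, adjusted p = 0.019). The call was lost in 2 of 8 fits without 1 rat (up to 0.061, without HP replicate 1), and the value turned negative after quantile normalization (adjusted p = 0.42). Cd86, a ligand of CD28, had standardized differences of 1.82 and 3.09 in its probe sets (adjusted p = 0.21 and 0.057). In the dimmer of these the HP arrays were all the higher ones, and the FDR by rank products was 0.028. Cd80, the other ligand of CD28, had a value of -0.12 (adjusted p = 0.96). None of 6 measured partner genes, out of 8 listed, passed limma's test. At an unadjusted p under 0.05, Icos (standardized difference 3.19, adjusted p = 0.052) and Cd40 (2.17, adjusted p = 0.14) were higher and none was lower, and rank products called none. Icoslg had a value of -1.42 (adjusted p = 0.33).

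Of the transcription and growth factors of myeloid cells outside the set, 5 of 13 measured genes rose and none fell, out of 16 listed. Irf8, a transcription factor required for monocytes and dendritic cells, had a standardized difference of 16.55 (adjusted p = 0.00094), above every member. It belongs to the family whose motif is marked in the promoters of Cybb, Cd48, Adgre1 and Ms4a7. The motif also occurs in those of Cd80 and Ncf1, which were not called. Whether Irf8 acts on any of these genes was not tested. Runx1, a factor of blood cell formation, rose in both of its probe sets (7.11 in the brighter, adjusted p = 0.0064), and Fli1, of the ETS family, in 2 of 4 (3.53 in the brightest, adjusted p = 0.039). Il34, the second ligand of Csf1r, had a value of 3.43 (adjusted p = 0.042) and Flt3, a receptor of dendritic cell precursors, one of 3.40 (adjusted p = 0.043). Their differences were small, at 6.18e-05 and 3.44e-05. All 18 measured signalling and integrin genes of blood cells, out of 22 listed, had a positive difference, beside 6763 of 14217 genes over the array. Of the 18, 3 rose and none fell. Those that rose were Fermt3, the integrin activator kindlin-3 (7.79, adjusted p = 0.0052), Fyb1, an adaptor of T cells and platelets (4.57, adjusted p = 0.021), and Inpp5d, the lipid phosphatase SHIP1 (3.60, adjusted p = 0.038). The difference of Inpp5d was 2.11e-05, and rank products did not call it.

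Markers of other cell types were read beside these results, each by its probe set of highest mean. Counts refer to measured markers. These were 6 of 10 listed for neutrophils, 7 of 9 for B and plasma cells and 4 of 7 for dendritic cells. They were 6 of 8 for erythroid cells and platelets, 5 of 6 for podocytes and 6 of 7 for endothelium. In the other marker lists every gene was measured. Of 10 T cell markers, Lck, a kinase of the T cell receptor (standardized difference 6.78, adjusted p = 0.0067), and Cd3g, a chain of that receptor (4.25, adjusted p = 0.024), rose, and Cd3e had a value of 3.09 (adjusted p = 0.057). The other 8 did not pass limma's test. Rank products called 4 of the 10 higher and none lower. Among these 4 were Cd3e (FDR 0.024) and Cd3d (standardized difference 2.90, limma adjusted p = 0.068, FDR 0.017). In all, 8 of the 10 had a positive difference, beside 6763 of 14217 genes over the array. A negative one was found in 2, Cd4 (-0.78) and Cd8a (-0.77), and the median was 1.07. The mean distance of the T cell list from the control mean was -0.23 to 0.33 pooled SDs in the control rats and 1.31 to 2.96 in the HP rats, highest in HP rat 2. For the leukocyte-wide genes it was -0.41 to 0.34 and 2.79 to 4.96, also highest in HP rat 2, and for macrophage identity -0.53 to 0.76 and 3.45 to 5.83. The part of T cells in the leukocyte-wide genes was not tested. Clec9a, a receptor of cross-presenting dendritic cells, rose as 1 of 4 dendritic cell markers (8.88, adjusted p = 0.0042), beside Cd1d1 (1.61, adjusted p = 0.26) and Itgae (0.61, adjusted p = 0.7).

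Neutrophils, natural killer (NK) cells, B cells and mast cells gave no called marker. None of 6 measured neutrophil markers, out of 10 listed, passed limma's test or had an unadjusted p under 0.05, and rank products called none. Their largest value was that of Mmp8 (1.02, adjusted p = 0.49), and those of Camp and S100a9 were -1.52 and -0.44 (adjusted p = 0.29 and 0.8). Of 6 NK cell markers none passed, none had an unadjusted p under 0.05 and rank products called none, with values of -0.86 (Ncr1) to 0.98 (Klrd1) and 0.58 for Prf1. Of 7 B and plasma cell markers none passed, and Jchain, which joins secreted antibodies, was higher at an unadjusted p under 0.05 and by rank products (3.0, adjusted p = 0.062), while Mzb1 and Cd79b were at -1.22 and -1.31. All 8 mast cell markers had negative values, beside 7454 of 14217 genes over the array, and none passed. The differences of these 8 were between -1.32e-05 and -1.3e-07, smaller in size than the 6.51e-05 by which the array medians differed. Of these, Tpsab1 was lower at an unadjusted p under 0.05 (-1.68, adjusted p = 0.24), the lowest was that of Tpsb2 (-2.10, adjusted p = 0.31), Hdc was at -1.49, and rank products called none.

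Fibroblast markers were also mostly higher in the HP group. Of 8 such markers 5 rose, among them Col3a1 (8.00, adjusted p = 0.0051), Dcn (6.84, adjusted p = 0.0067) and Col1a1 (5.94, adjusted p = 0.0093). Their mean distance from the control mean was -0.71 to 0.59 pooled SDs in the control rats. It was 4.78, 4.72, 4.22 and 4.63 in HP rats 1 to 4, with rats 1 and 2 close together. Among the member roles, HP rat 1 was the highest for the chemokine receptors (2.81, beside 2.72 in HP rat 2). HP rat 3 was the highest for the colony-stimulating factor system (2.02, beside 1.96 in HP rat 2). The other member roles were highest in HP rat 2. Of 9 proximal tubule markers none passed, and at an unadjusted p under 0.05 Slc22a6 (-2.01) and Cubn (-1.66) were lower and none was higher. Miox was at -3.31 (adjusted p = 0.31). Of 10 markers of the later nephron none passed, with Slc12a3 lower at an unadjusted p under 0.05 (-2.72, adjusted p = 0.082), Scnn1g at 1.33 and Calb1 at 1.00. None of 5 podocyte markers passed or had an unadjusted p under 0.05 (Nphs1 -1.09, Synpo 0.70, Podxl -0.65). Of 6 endothelial markers none passed, and Eng was higher at an unadjusted p under 0.05 (2.12, adjusted p = 0.16), beside Plvap (1.25) and Pecam1 (1.05). None of 6 erythroid and platelet markers passed, but Gp9 (-2.90), Alas2 (-1.91), Hbb (-1.77) and Ppbp (-1.64) were lower and Pf4 (1.72) higher at an unadjusted p under 0.05, and rank products called Alas2 and Hbb lower. By the probe sets of highest mean, rank products called no marker of the proximal tubule, the later nephron, the podocytes or the endothelium, but the dimmer probe set of Slc34a1, the sodium phosphate cotransporter of the proximal tubule, was called lower (-3.03, limma adjusted p = 0.06). Whether a change in the share of tubular or interstitial tissue had a part in the myeloid result was not tested.

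**Figure D5:**
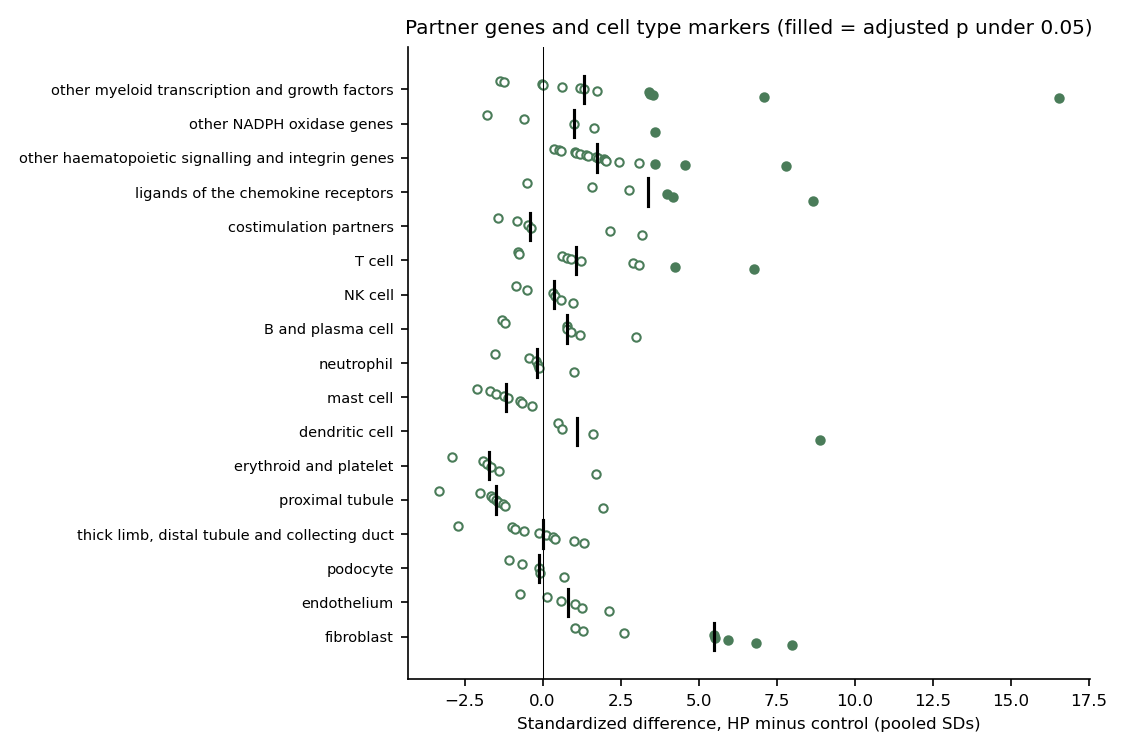
Standardized difference between diets (HP minus control, in pooled SDs, horizontal axis) of each measured gene in 5 lists of partner genes and 12 lists of cell type markers. Filled points were called at an adjusted p under 0.05, open points were not, and bars mark the medians, which are 5.50 for fibroblast, 1.07 for T cell, -0.19 for neutrophil and -1.50 for proximal tubule markers. The point farthest to the right is Irf8 at 16.55.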

How the data were processed

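The kidneys of 8 rats gave 1 array each. The authors quantified the arrays with DFW in R and deposited 1 logarithmic value per probe set and array, taken here as log2 since the base is not stated. These values entered the tests as they were. After removal of the 57 Affymetrix controls, limma 3.58.1 (R 4.3.3, empirical Bayes moderation, prior degrees of freedom 0.772) compared the diets over 31042 probe sets, with Benjamini-Hochberg adjustment and a threshold of 0.05. Every adjusted p comes from this test unless another is named. The platform annotation named exactly 1 gene for 20826 probe sets, and all 55 member probe sets have the same symbol in RefSeq through their gene identifier. In counts of genes, each gene stood for its probe set of highest mean. The labels call the 4 samples of a diet biological replicates.

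Rank products used the 16 pairs of arrays and 1000 permutations over 31099 probe sets. Exact permutation tests (two-sided) ran over all 70 arrangements. Other steps ran in Python 3.11.15 with numpy 2.4.6, pandas 2.3.3 and matplotlib 3.10.9. The tests were checked on simulated data. Members and lists were chosen with earlier results of these data known. The rule named, with values, up to 4 genes per role and 3 per other list by the smallest p, and members whose probe sets differed in call or, with a call, in sign. Other members and list genes were chosen for naming with their values in view. As alternatives served quantile normalization, median centring, exclusion of the dimmest 25% of probe sets, no moderation, trend and robust moderation, array weights, rank products, the replicate number as a block, removal of each rat and another choice of probe set per gene. Median centring with the controls included was chosen after seeing the data.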

Additional observations from a re-analysis of the deposited data

Results flagged for a closer look

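In 7 of the 110 groups of 4 arrays formed by the 55 member probe sets and both diets, 1 array lay far from the other 3, measured by its gap to the nearest array divided by the range of the group. Chance gives such a gap in about 1 of 20 groups. HP rat 2 was the distant array in 4 of the 7. In the brighter probe set of Il10ra it was at 7.129295 against 7.129199 to 7.129215 in the other HP rats (gap 0.832 of the range), and in that of Arhgdib at 8.630683 against 8.630654 to 8.630658 (0.868). In a probe set of Csf1 it was at 6.935229 against 6.935223 to 6.935224 (0.836), and in Cx3cr1 it was the lowest, at 6.857626 against 6.857628 in the others (0.878). Cd52 was lowest in HP rat 4, at 6.373497 against 6.373507 to 6.373509 (0.8292). The brightest probe set of Csf1 was lowest in HP rat 1, at 7.769795 against 7.769799 (0.839). The dimmer probe set of Cyba was lowest in control rat 2, at 6.313535 against 6.313536 (0.925), a gap in the sixth decimal of the deposited values. Of the probe sets named here, only that of Il10ra was called, and without HP replicate 2 its adjusted p was 0.072.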

How the results depend on the processing

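The count of member probe sets called higher, 26, was 18 after quantile normalization, 6 after median centring, 26 without dim probe sets, 18 if variances were not moderated, 26 with a trended robust prior, 25 with weighted arrays, 34 by rank products and 23 after median centring with the Affymetrix controls included. The gene count of 22 was 16, 6, 22, 16, 22, 21, 28 and 20 in the same order, 23 with the probe set of largest SD and 24 with any probe set of the gene. Leaving out 1 rat gave 12 to 23 probe sets and 9 to 20 genes. Calls in the lower direction, of which there was none, arose only after quantile normalization among the settings run, in 6 probe sets and 3 genes. In that setting 24.9% of all probe sets were called lower, beside 1.13% in the test reported. With the replicate number as a block, 6 probe sets and 6 genes were called higher. The share of all probe sets called higher, 2.95%, was 1.02% after quantile normalization, 0.251% after median centring, 1.42% with the controls included, 1.68% if variances were not moderated and 0.818% with the replicate block. Deviations of control and HP rats of the same number had correlations of 0.001 to 0.121, beside -0.165 to 0.084 for rats of different numbers. Of the 8 arrays, 5 correlated best with their own number. The labels name no pairs, so the main test did not pair the numbers. Whether arrays of the same number shared a processing step was not tested.

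Quantile normalization turned the sign of 16 of 55 member probe sets (differences within 1e-12 of 0 not counted), 3 of them called ones, and median centring 16, 1 of them called. Some of these were called in the test reported or in the alternative. By quantile normalization they were the dimmer probe sets of Ptprc (adjusted p = 1.8e-25) and Il10ra (2.1e-25), Ms4a7 (0.84), Csf2ra (0.002), the brighter probe set of Cd86 (2.3e-29) and Cd83 (0.42). By median centring it was Ccr1 (0.98). This centring lowered the difference of every probe set by the same amount, since the medians of the HP arrays were higher on average. The difference of Ccr1 went from 3.82e-05 to -2.28e-05 and that of the dimmer probe set of Lcp2 from 6.23e-05 to 1.24e-06. Since quantile normalization called 24.9% of all probe sets lower, its calls in that direction are not particular to the members. Its very small adjusted p values for Ptprc, Il10ra and Cd86 belong to differences of only -4.52e-05, -4.38e-05 and -0.000236. In Cd52 and Arhgdib the difference became 0 within 1e-12 in that setting. The adjusted p values of this setting are therefore not read as strength of evidence. The medians of the arrays differed by up to 6.51e-05, which is more than the differences of Ccr1 and of the dimmer probe set of Lcp2. Among called genes outside the set, it is also more than those of Il34, Flt3, Inpp5d and Cx3cl1. Apart from these facts of scale, the cause was not tested. The signal of dim probe sets over background could not be read from the deposited values.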
